A study of Homo sapiens with 6 samples.

Results

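The cornified envelope genes examined here were 10: the transglutaminase gene TGM1 and 9 genes for proteins that are built into the envelope or act beside it (SPRR1A, SPRR1B, SPRR2B, SPRR3, IVL, SCEL, CSTA, CNFN and SBSN). Every probe set that the array annotation assigns to 1 of these symbols was taken, which gave 15 of the 54613 probe sets that are not array controls. No member shared a probe set with a second gene symbol, and each of the 10 genes had at least 1 probe set. Because no filter on dim values was used, all 15 were tested. The 10 genes were compared between 3 arrays of CRB3-expressing MCF-10A cells and 3 arrays of vector control MCF-10A cells.

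The cornified envelope is the insoluble protein shell that stratified epithelia build under the plasma membrane of their outermost cells. Involucrin (IVL) and other early proteins form a scaffold at the membrane, small proline-rich proteins (SPRR) act as cross-bridges, and calcium-dependent transglutaminases, chiefly transglutaminase 1 (TGM1) in keratinocytes, join glutamine and lysine side chains of these proteins into a covalent network. Sciellin (SCEL), cornifelin (CNFN), cystatin A (CSTA) and suprabasin (SBSN) are other proteins of this layer or of the suprabasal cells that make it. The simple epithelium of the normal mammary gland does not cornify, while cultured mammary epithelial cells are known to express part of this programme.

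MCF-10A is a human mammary epithelial line that is immortal but not malignant. One group was infected with a pNG retrovirus that carries CRB3, the gene of a small apical polarity protein, and the other with the empty pNG vector. Both groups were selected with puromycin, grown in the usual MCF-10 growth medium and harvested as proliferating monolayers at 70% confluence. The paper's methods also describe moving the tagged CRB3 constructs into the vector pLNCX2, without saying which vector the array samples carried. They name puromycin only for cells infected with hairpin viruses. CRB3 was driven by the virus and not by its own gene, and no source used here says that the 3 samples of a group came from separate infections, so a p-value here rests on the spread among the arrays, which may be technical. The labels were checked on the CRB3 probe set, whose log2 value averaged 12.11 ± 0.102 in CRB3-expressing cells, against 7.78 ± 0.167 in vector control cells (SD, n = 3 each). Medians of the arrays lay between 5.84 and 5.88. Values near or under 6 are not shown to be above background, since the deposited values carry no detection calls.

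Of 12 markers of mammary epithelium, 10 had a probe set with a single symbol, and their mean log2 values over the 6 arrays were between 9.97 and 13.94. Of 8 measured markers of terminally differentiated keratinocytes, 1 had a mean of at least 6, KRT10 (11.1 in CRB3-expressing cells, against 11.0 in vector control cells). Filaggrin (FLG, 3.44 in CRB3-expressing cells, against 3.38 in vector control cells) and loricrin (LORICRIN, 5.2 in CRB3-expressing cells, against 5.23 in vector control cells) were among the dim ones. Of the 8, 0 differed between the groups at an adjusted p under 0.05 by limma, and 0 at an unadjusted p under 0.05, and the sum of their log2 values ran from 43.8 to 44.2 on CRB3-expressing arrays and from 43.9 to 44.5 on vector control arrays. Of 10 measured markers of fibroblasts, blood and endothelial cells, likewise 0 differed at either p, and their sum ran from 57.2 to 58.8 on CRB3-expressing arrays and from 58.0 to 58.5 on vector control arrays. Not all of these were dim, since 4 had a mean of at least 6. Among them were CD14 (8.27 in CRB3-expressing cells, against 8.32 in vector control cells) and COL1A1 (8.02 in CRB3-expressing cells, against 8.01 in vector control cells). Over all 54613 probe sets, 2.24% were higher and 1.39% lower at the adjusted p alone, and no share was computed at the unadjusted p. Counts of 0 among 8 or 10 markers are close to these shares, so they are no result about the markers.

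The sequences before the start sites of 6 members are shown because these are the member whose transcript rose most on the arrays and the 5 members that lie together on chromosome 1. They are the 250 bases upstream of the annotated start in RefSeq (GRCh38.p14), 5′ to 3′ on the strand of the gene, and capitals mark matches to TGANTCA, the consensus of AP-1 (Fos and Jun dimers), and to the TATA box TATAAA. SCEL is chr13:77535456-77535705 (plus strand), SPRR1A chr1:152983831-152984080 (plus strand), SPRR1B chr1:153030953-153031202 (plus strand), SPRR2B chr1:153071612-153071861 (minus strand), SPRR3 chr1:153001499-153001748 (plus strand) and IVL chr1:152908296-152908545 (plus strand).
SCEL: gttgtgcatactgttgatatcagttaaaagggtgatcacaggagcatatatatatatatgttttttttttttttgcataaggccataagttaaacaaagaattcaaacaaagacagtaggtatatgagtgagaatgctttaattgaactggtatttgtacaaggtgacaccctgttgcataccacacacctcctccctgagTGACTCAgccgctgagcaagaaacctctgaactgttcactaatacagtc
SPRR1A: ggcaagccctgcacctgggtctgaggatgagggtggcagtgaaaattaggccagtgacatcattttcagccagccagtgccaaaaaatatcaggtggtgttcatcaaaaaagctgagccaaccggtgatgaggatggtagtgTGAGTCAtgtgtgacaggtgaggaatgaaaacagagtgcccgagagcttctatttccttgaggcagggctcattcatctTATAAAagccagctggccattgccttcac
SPRR1B: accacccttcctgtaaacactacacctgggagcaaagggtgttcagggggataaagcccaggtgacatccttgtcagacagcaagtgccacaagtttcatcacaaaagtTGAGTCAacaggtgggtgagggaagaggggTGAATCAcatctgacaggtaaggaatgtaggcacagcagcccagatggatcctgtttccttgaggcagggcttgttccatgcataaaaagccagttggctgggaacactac
SPRR2B: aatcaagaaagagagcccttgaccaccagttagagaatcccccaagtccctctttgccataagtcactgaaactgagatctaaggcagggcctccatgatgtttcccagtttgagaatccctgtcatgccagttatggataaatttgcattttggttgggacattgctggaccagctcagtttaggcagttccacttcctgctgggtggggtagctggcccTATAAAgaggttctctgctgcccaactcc
SPRR3: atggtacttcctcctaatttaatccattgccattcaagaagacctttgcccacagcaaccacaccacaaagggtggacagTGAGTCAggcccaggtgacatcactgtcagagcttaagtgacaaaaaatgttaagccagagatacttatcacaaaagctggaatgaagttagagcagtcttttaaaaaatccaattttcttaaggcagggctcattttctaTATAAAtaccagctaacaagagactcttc
IVL: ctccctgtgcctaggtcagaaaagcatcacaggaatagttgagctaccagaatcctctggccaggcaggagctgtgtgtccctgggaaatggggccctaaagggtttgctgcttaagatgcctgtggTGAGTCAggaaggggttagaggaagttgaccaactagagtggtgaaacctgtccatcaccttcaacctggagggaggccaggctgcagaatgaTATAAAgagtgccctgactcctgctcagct

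Windows were matched for 8 of the 10 members by symbol, all but TGM1 and CSTA. TGANTCA, searched on both strands, was present in 6 of these 8 windows, against 6.57% of all 35116 promoter windows of the same 250 bases. The 6 were SCEL, SPRR1A, SPRR1B, SPRR3, IVL and SBSN. SPRR1B and SBSN held 2 matches each, at -141 and -111 in SPRR1B and at -173 and -71 in SBSN, counted from the start site, and SCEL held 1 match at -49. TATAAA, which overlaps none of these matches, was present in 4 of the 8 windows (SPRR1A, SPRR2B, SPRR3 and IVL, at -29 or -30), against 10.7% of all windows. These matches describe letters and were not tested as binding sites.

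SCEL and TGM1 were clearly higher in CRB3-expressing cells, SPRR transcripts showed smaller rises that were called in some probe sets only, and IVL, CSTA, CNFN and SBSN were not called. A probe set was called when limma gave it an adjusted p under 0.05, with Benjamini-Hochberg adjustment over all probe sets, and its fold change exceeded 1.5. By these thresholds 8 of the 15 member probe sets were called higher, where 0.948% of all 54613 probe sets were called higher. Of the 15, 0 were called lower, where 0.363% of all were. At an unadjusted p under 0.05, for which no share of all probe sets was computed, 1 (CSTA) was lower. By the adjusted p alone, 9 were higher (2.24% of all) and 1 was lower (1.39% of all). The 8 became 5 without CRB3-expressing replicate 1, and 4 with an ordinary pooled variance or with limma's treat against a 1.5-fold change, where only the 3 SCEL probe sets and TGM1 were called. It was also 4 with probe sets shared between transcripts (_s_at, _x_at, _a_at) left out. The 8 called probe sets, 3 of them of SCEL, belong to 6 genes (SCEL, TGM1, SPRR1A, SPRR1B, SPRR2B and SPRR3), and 4 genes had none (IVL, CSTA, CNFN and SBSN). The median log2 fold change was 0.59 over the 15 probe sets and 0.0012 over all probe sets. These members were chosen with earlier results of the same data known, so the shares describe them and are not an independent test.

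**Figure D1:**
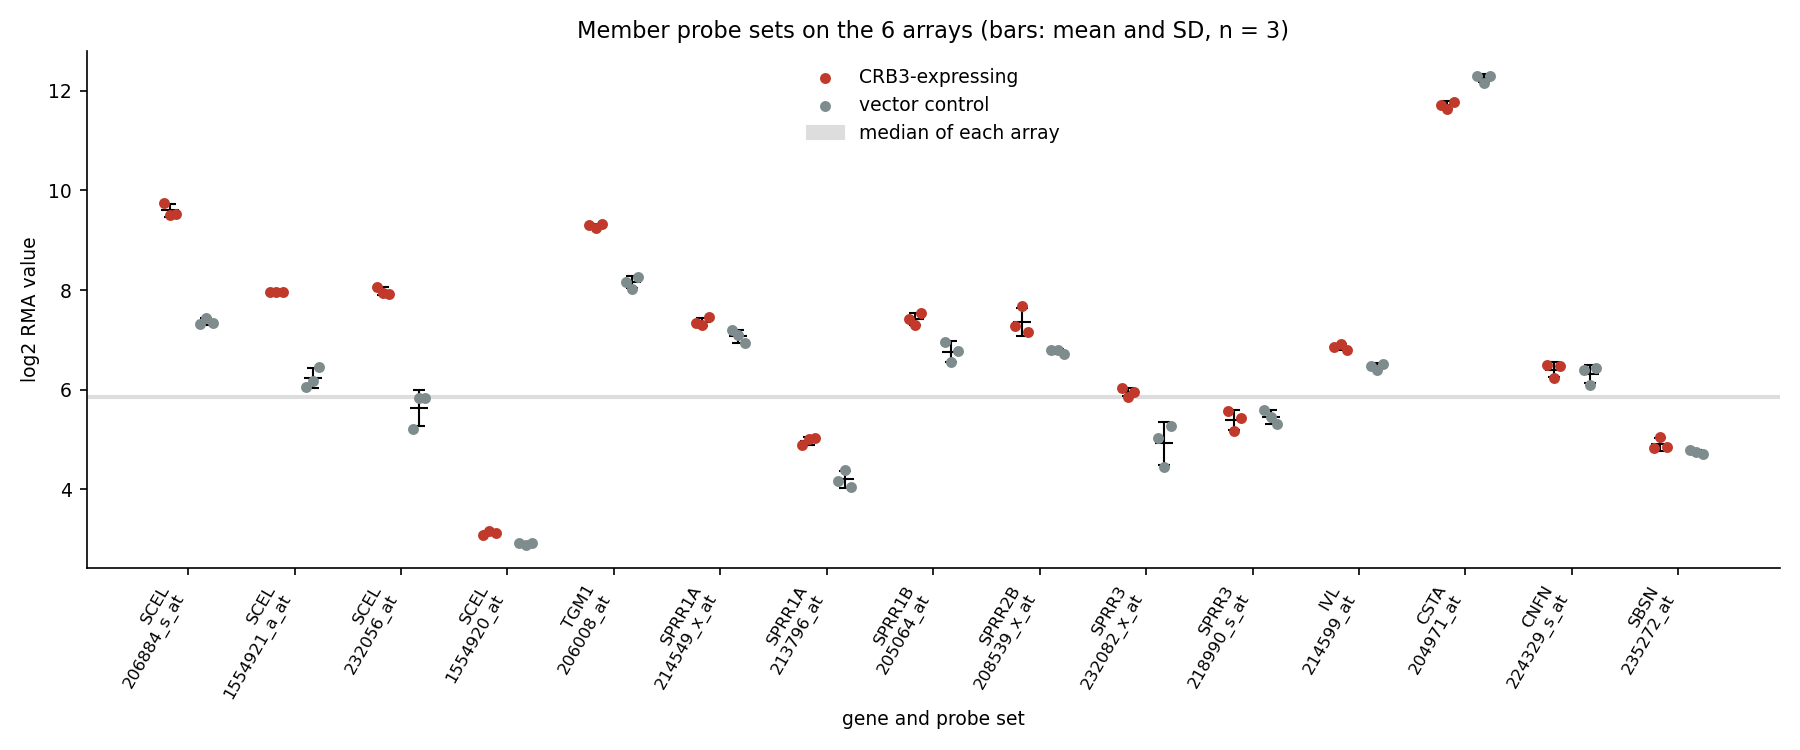
Log2 RMA value (y axis) of the 15 member probe sets (x axis, named by gene and probe set) on the 3 CRB3-expressing arrays (red, left of each pair) and the 3 vector control arrays (grey), with bars for the mean and SD (n = 3) and a grey band for the array medians. SCEL stands far above its vector control values in 3 probe sets, TGM1 in its 1 probe set, and CSTA is the member that lies lower in CRB3-expressing cells, at 11.71 against 12.25.

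TGM1, the membrane-anchored enzyme that cross-links the envelope, had log2 values of 9.30, 9.25 and 9.32 in CRB3-expressing cells, against 8.17, 8.03 and 8.27 in vector control cells. All 3 CRB3-expressing arrays lay above all vector control arrays, with a gap of 0.98 between the nearest values of the groups. The mean was 9.29 ± 0.0359 in CRB3-expressing cells, against 8.16 ± 0.119 in vector control cells (SD, n = 3 each), a 2.19-fold rise (1.13 on the log2 scale, SE 0.0745, adjusted p = 5.48e-05 by limma). Among all probe sets, 154 had a larger positive log2 fold change. TGM1 was called in each of the 17 alternatives, which include changed fold thresholds on the same fit.

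Of the 8 other transglutaminase genes, 1 was called higher and 0 lower, where 1.43% of all 19775 genes were called higher and 0.465% lower. EPB42, 1 of the 8, encodes a relative without enzyme activity. At an unadjusted p under 0.05 limma gave 3 of the 8 higher and 0 lower, with no share of all genes computed at that p. The called gene was TGM2, tissue transglutaminase, with a mean log2 value of 7.59 ± 0.298 in CRB3-expressing cells, against 6.85 ± 0.133 in vector control cells (SD, n = 3 each; log2 fold change 0.74, adjusted p = 0.0210 by limma). This was the brightest of 4 TGM2 probe sets, and the other 3 had log2 fold changes of 0.30, 0.24 and -0.09 and were not called. TGM4, the prostate transglutaminase, passed the adjusted p alone (log2 fold change 0.46, adjusted p = 0.0394) and was named after its values were seen. TGM3, which also works in epidermis, averaged 4.84 in CRB3-expressing cells, against 4.91 in vector control cells, both under the array medians.

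SCEL encodes sciellin, a precursor of the envelope that transglutaminases join to it, and showed the largest rises among the members. Its brightest probe set, 206884_s_at, had log2 values of 9.75, 9.51 and 9.53 in CRB3-expressing cells, against 7.31, 7.44 and 7.34 in vector control cells. The groups lay 2.07 apart at their nearest values, and SCEL was 4.69-fold higher (2.23 on the log2 scale, SE 0.0808, adjusted p = 1.41e-06 by limma). The probe set 1554921_a_at had 7.96, 7.95 and 7.95 in CRB3-expressing cells, against 6.05, 6.18 and 6.45 in vector control cells (a log2 difference of 1.72, SE 0.0973). The probe set 232056_at had 8.07, 7.94 and 7.92 in CRB3-expressing cells, against 5.22, 5.83 and 5.83 in vector control cells (a log2 difference of 2.35, SE 0.153), where the vector control values are below the array medians and so give no firm size.

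These 3 SCEL probe sets were thus called with the groups wide apart, while the fourth stood near the floor of the array. That probe set, 1554920_at, had 3.09, 3.17 and 3.12 in CRB3-expressing cells, against 2.93, 2.89 and 2.93 in vector control cells, and was dimmer than nearly all probe sets, with 0.0513% of them below it. Its groups did not overlap, but the difference was 0.21 on the log2 scale (SE 0.0595, adjusted p = 0.113 by limma). Of all 54613 probe sets, 37 had a larger log2 fold change than 206884_s_at. The 3 called SCEL probe sets stayed called in every alternative that retained them.

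**Figure D2:**
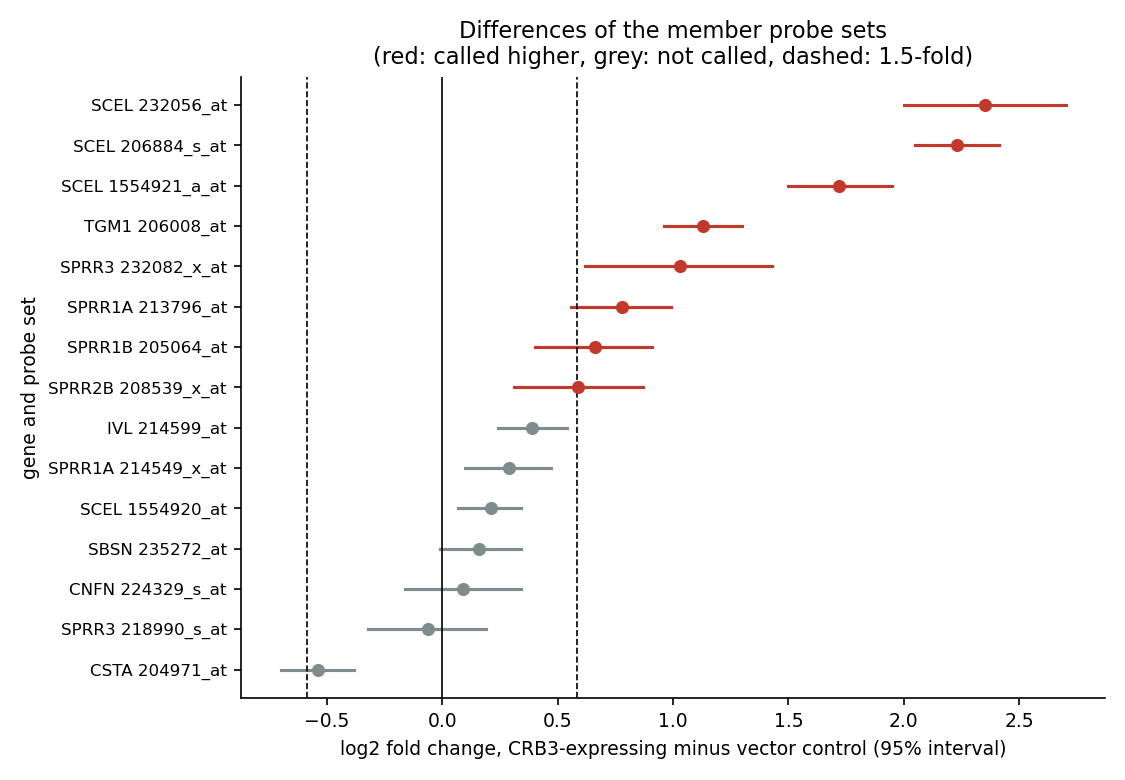
Difference in log2 value, CRB3-expressing less vector control (x axis), of each member probe set (y axis) as a point with its 95% interval by limma; red is called higher, grey is not called, the solid line is 0 and dashed lines are 1.5-fold. The intervals of 3 SCEL probe sets, TGM1 and SPRR3 232082_x_at lie wholly beyond 1.5-fold, those of SPRR1A 213796_at, SPRR1B and SPRR2B reach back across it, and CSTA lies on the other side of 0. Intervals are not adjusted for the number of probe sets tested. The dim SPRR3 232082_x_at lost its call under treat and with an ordinary pooled variance.

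Transcripts of the small proline-rich proteins, short cross-bridging proteins with proline-rich repeats, rose by smaller amounts and less uniformly, with 4 of 6 probe sets called higher. Their genes are close paralogs, and names ending in _x_at mark probe sets with probes that can also bind other transcripts, so their values may be shared between family members. SPRR1B, read by 205064_at, had log2 values of 7.42, 7.29 and 7.54 in CRB3-expressing cells, against 6.96, 6.55 and 6.77 in vector control cells. The groups did not overlap and the fold change was 1.58 (0.66 on the log2 scale, SE 0.111, adjusted p = 0.0128 by limma). Without CRB3-expressing replicate 1, CRB3-expressing replicate 3 or vector control replicate 2 it was not called (adjusted p = 0.0510, 0.0534 and 0.0329, the last with a log2 fold change of 0.55).

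SPRR1A had 2 probe sets, of which the dimmer one was called. In 213796_at the log2 values were 4.89, 5.0 and 5.04 in CRB3-expressing cells, against 4.16, 4.39 and 4.05 in vector control cells, with no overlap (log2 fold change 0.78, SE 0.0942, adjusted p = 0.00201 by limma). All 6 of these values lie under the array medians, and the call was lost with an ordinary pooled variance (adjusted p = 0.0866), under treat and above 2-fold. The brighter 214549_x_at had 7.33, 7.30 and 7.45 in CRB3-expressing cells, against 7.19, 7.09 and 6.94 in vector control cells. Here the groups were 0.11 apart and the 1.22-fold difference did not pass the test (log2 fold change 0.29, SE 0.0816, adjusted p = 0.109 by limma).

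SPRR3 also had 2 probe sets, and they differed. The called one, 232082_x_at, had 6.04, 5.86 and 5.95 in CRB3-expressing cells, against 5.04, 4.45 and 5.27 in vector control cells, with no overlap (log2 fold change 1.03, SE 0.178, adjusted p = 0.0144 by limma). The other, 218990_s_at, had 5.57, 5.17 and 5.43 in CRB3-expressing cells, against 5.60, 5.45 and 5.31 in vector control cells, with overlapping groups (log2 fold change -0.06, 95% interval -0.32 to 0.19). Both probe sets were dim, at means of 5.44 and 5.42 over the 6 arrays, so a rise of SPRR3 rests on 1 dim probe set. Leaving out any single CRB3-expressing array ended its call (adjusted p between 0.0520 and 0.0611).

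SPRR2B, read by 208539_x_at, had 7.27, 7.68 and 7.15 in CRB3-expressing cells, against 6.80, 6.80 and 6.71 in vector control cells. CRB3-expressing replicate 2 was the highest, and even the lowest CRB3-expressing array lay above the vector control arrays. The fold change of 1.51 was only just past the threshold (log2 fold change 0.59, SE 0.124, adjusted p = 0.0361 by limma). The call was lost on leaving out any single array other than CRB3-expressing replicate 3 (without CRB3-expressing replicate 2 the log2 fold change was 0.44, adjusted p = 0.0308), and after median-centring of the arrays or with array quality weights (0.58 in both). The paralogs SPRR2C (4.03 in CRB3-expressing cells, against 4.07 in vector control cells) and SPRR2G (6.37 in CRB3-expressing cells, against 6.41 in vector control cells), each on its own probe set, were not called.

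IVL encodes involucrin, an early glutamine-rich scaffold protein of the envelope. Its log2 values were 6.85, 6.92 and 6.80 in CRB3-expressing cells, against 6.47, 6.40 and 6.52 in vector control cells. The groups did not overlap and the adjusted p was 0.0123 by limma, but the 1.31-fold difference (log2 fold change 0.39, SE 0.0659, 95% interval 0.24 to 0.54) stayed under the fold threshold, and IVL was not called.

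CSTA encodes cystatin A, an inhibitor of cysteine cathepsins that is also found in the envelope, and its probe set was brighter than 98.0% of all probe sets. Its log2 values were 11.72, 11.63 and 11.78 in CRB3-expressing cells, against 12.29, 12.15 and 12.30 in vector control cells. Every CRB3-expressing array lay below every vector control array, opposite to the other members whose groups did not overlap. The log2 fold change was -0.54 (SE 0.0706, 95% interval -0.70 to -0.38, adjusted p = 0.00326 by limma), and at 1.45-fold the difference fell short of the fold threshold, so CSTA was not called lower.

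CNFN, which encodes cornifelin, had 6.50, 6.23 and 6.48 in CRB3-expressing cells, against 6.39, 6.10 and 6.44 in vector control cells. These groups overlapped (log2 fold change 0.09, 95% interval -0.16 to 0.34, adjusted p = 0.749 by limma). SBSN, which encodes the secreted suprabasal protein suprabasin, had 4.82, 5.05 and 4.84 in CRB3-expressing cells, against 4.78, 4.75 and 4.70 in vector control cells. The groups were 0.05 apart at a level under the array medians, and the difference did not pass the test (log2 fold change 0.16, 95% interval -0.01 to 0.34, adjusted p = 0.347 by limma).

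The fold change was positive in 13 of the 15 probe sets, and in 50.4% of all. CRB3-expressing values all lay above vector control values in 12, all below in 1 (CSTA), and overlapped in 2 (CNFN and SPRR3 218990_s_at). Of all 54613 probe sets, 11.1% had the CRB3-expressing group wholly above and 10.7% wholly below. Read in the brightest probe set of each gene, 5 of the 10 members were called higher, where 1.43% of 19775 genes were, and 0 lower, where 0.465% were.

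IVL and the 4 SPRR members lie in the epidermal differentiation complex, a cluster on chromosome 1 that holds many genes of cornification and of the S100 family. The RefSeq gene table places 93 genes from S100A10 to S100A1, and 44 of them were measured with a single-symbol probe set. In the brightest probe set of each, 3 were called higher (SPRR3, SPRR1B and SPRR2B) and 0 lower, where 1.43% of all genes were called higher and 0.465% lower. At an unadjusted p under 0.05 by limma, 10 genes of the region were higher and 5 lower. No share of all genes was computed at that p, so these 2 counts have nothing to be read against. All 3 were members, and 0 of the 39 others were called. None of the 3 calls held under treat or with an ordinary pooled variance (adjusted p = 0.206, 0.172 and 0.248). The median log2 fold change was 0.59 for the 5 members and -0.017 for the 39 others, with 0.0066 over all 19775 genes. Since the members were chosen with earlier results of these data known, this contrast is not an independent result about them. By the adjusted p alone, CRCT1 was higher (log2 fold change 0.43) and S100A9 lower (-0.37) among the others, both named after their values were seen. SPRR4, directly beside SPRR1A among the measured genes, had 7.98 in CRB3-expressing cells, against 7.90 in vector control cells. The late envelope genes of the region (LORICRIN, FLG, RPTN and the 4 measured LCE genes) were not called. Of these, LORICRIN, FLG, RPTN, LCE2B and LCE3D averaged under the array medians in both groups. They were too dim for a missing call to be read. LCE1B and LCE1E were brighter, at 6.76 and 6.86 in CRB3-expressing cells, against 7.04 and 6.96 in vector control cells. Where 1.43% of all genes were called higher, 0 calls among so few genes are no result about them.

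**Figure D3:**
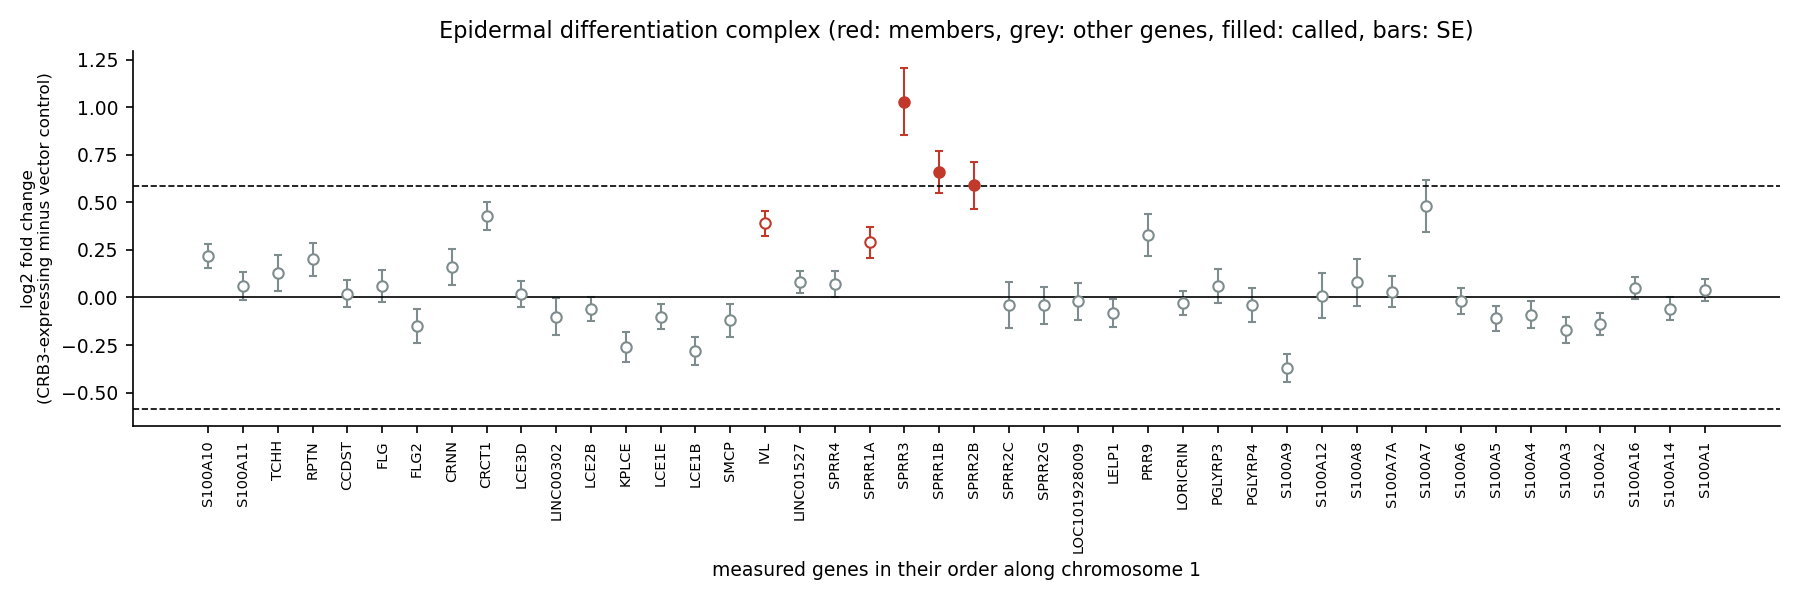
Difference in log2 value, CRB3-expressing less vector control (y axis, points with SE), of the 44 measured genes of the epidermal differentiation complex in their order along chromosome 1 (x axis); red marks the 5 members, grey the others, filled points are called, and dashed lines are 1.5-fold. The 3 called genes, SPRR3, SPRR1B and SPRR2B, stand next to one another, and no grey point is filled. These 3 calls were lost under treat.

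Other genes of cornification were read from lists chosen by role, each gene in its brightest single-symbol probe set. The lists were drawn up with earlier results of these data known, so their counts describe the listed genes only. Over all 19775 genes, 1.43% were called higher and 0.465% lower. No such share was computed at an unadjusted p, so the counts at that p in each list have none to be read against. Of 21 measured precursors of the envelope that are not members, 3 were called higher and 0 lower (7 and 1 at an unadjusted p under 0.05 by limma), with a median log2 fold change of 0.062 beside 0.0066 over all genes. They were PI3, PPL and CST6. CST6, which encodes cystatin M/E, an inhibitor of cysteine proteases in the cornified layer, averaged 9.11 in CRB3-expressing cells, against 7.88 in vector control cells (a log2 difference of 1.22, SE 0.0771). PPL, the plakin that builds the scaffold together with envoplakin, had a log2 fold change of 1.05.

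Of 24 measured suprabasal and differentiation markers, 4 were called higher and 0 lower (7 and 2 at an unadjusted p under 0.05, median log2 fold change 0.020): KRT13, KRT16, SERPINB1 and KRT80. For this list and the next, the shares of all genes called were 1.43% higher and 0.465% lower, and none was computed at an unadjusted p. KRT16, a keratin of activated keratinocytes, averaged 9.49 in CRB3-expressing cells, against 6.99 in vector control cells (a log2 difference of 2.50, SE 0.0887). KRT1, a keratin of epidermal differentiation, averaged 5.24 in CRB3-expressing cells, against 5.36 in vector control cells, both under the array medians. Of 24 measured barrier lipid enzymes, proteases and inhibitors, 7 were called higher and 0 lower (10 and 0 at an unadjusted p under 0.05, median log2 fold change 0.046). These included KLK7 and KLK5, proteases of desquamation, with log2 fold changes of 2.30 and 1.70, beside KLK10 and SPINK6, and in this list the called members are mainly secreted proteases and an inhibitor rather than lipid enzymes. KLK8, PRSS8 and UGCG, an enzyme of glucosylceramide synthesis, were the other 3, chosen for naming once their values were known.

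Of 27 measured transcription factors of keratinocyte differentiation, 3 were called higher and 1 lower (8 and 5 at an unadjusted p under 0.05, 1 and 0 by treat, median log2 fold change 0.11). Among all genes, 1.43% were called higher and 0.465% lower, with no share computed at an unadjusted p. GRHL3, required for the skin barrier in mice, averaged 8.93 ± 0.0219 in CRB3-expressing cells, against 7.08 ± 0.0510 in vector control cells (SD, n = 3 each; log2 fold change 1.86, SE 0.0605, adjusted p = 8.55e-07 by limma). ELF3, an epithelial ETS factor, had a log2 fold change of 1.21 in its brightest probe set and 1.14 and 0.73 in the other 2, all called. KLF4, also required for the skin barrier in mice, had 0.89 and 0.61 in its 2 probe sets, both called. FOS, a subunit of AP-1, was lower, with a mean of 6.80 in CRB3-expressing cells, against 7.67 in vector control cells (a log2 difference of -0.87). The other AP-1 subunits of the list were not called and went both ways. Their log2 fold changes were 0.42 (FOSL2), 0.22 (JUND), 0.20 (JUN), -0.06 (JUNB) and -0.08 (FOSL1). FOSL2 passed the adjusted p alone (adjusted p = 0.0123 by limma). So did GATA3, higher (log2 fold change 0.36, adjusted p = 0.0252), and VDR, lower (-0.52, adjusted p = 0.00131), both named after their values were seen. At that p alone, 5 factors of the list were higher and 2 lower. Whether any of these factors acts on the member genes was not tested.

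**Figure D4:**
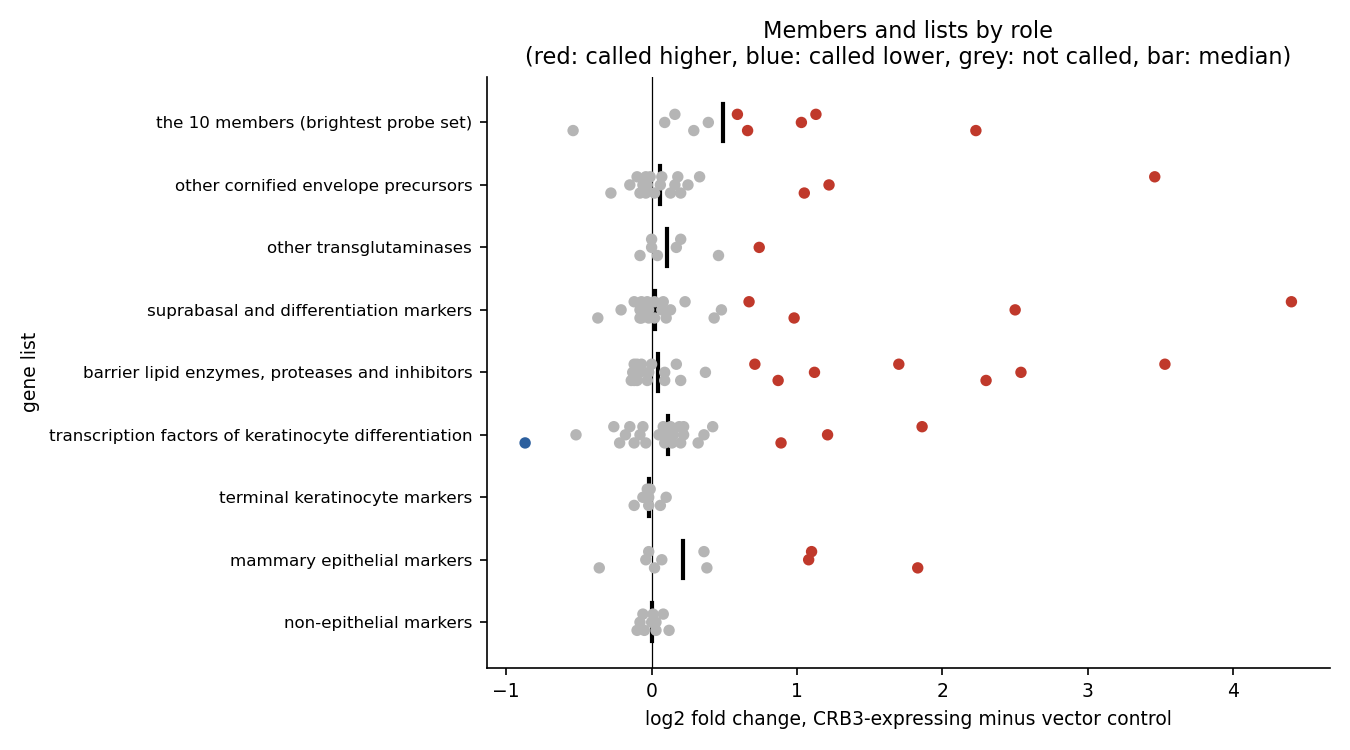
Difference in log2 value, CRB3-expressing less vector control (x axis), of the 10 members and of the genes in 8 lists by role (y axis), 1 point per gene in its brightest probe set; red is called higher, blue called lower, grey not called, and black bars are medians. The members' called genes reach 2.23 (SCEL), single genes of the other lists lie further to the right, and the terminal keratinocyte and non-epithelial markers stay close to 0.

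Some markers of the mammary epithelium rose beside the members. Of the 10 measured, 3 were called higher (KRT14, CDH1 and KRT8) and 0 lower, where 1.43% of all genes were called higher and 0.465% lower. By limma, 5 were higher and 1 lower at the adjusted p alone, and 5 and 1 at an unadjusted p under 0.05. Of all 54613 probe sets, 2.24% were higher and 1.39% lower at the adjusted p alone. No share over genes was computed at either p. The sum of the 10 log2 values ran from 122 to 123 on CRB3-expressing arrays and from 117 to 118 on vector control arrays. Their part in the rise of the cornified envelope genes was not tested. In a bulk sample, more transcript per cell and more cells that express a gene cannot be told apart.

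The genes whose pattern over the 6 arrays was nearest to that of SPRR1B were found by the root mean square difference of log2 values, each taken from the mean of its probe set. Among 19765 genes that are not members, the nearest 5 were KCNB2, B4GALT4, GDPD3, IL1RN and FA2H, with differences between 0.0684 and 0.0904 and Pearson's r between 0.969 and 0.994 over the 6 arrays. Their log2 fold changes were 0.58, 0.80, 0.54, 0.54 and 0.67 in that order, of which B4GALT4 and FA2H were called higher. With 6 arrays in 2 groups, this measure includes the difference between the groups.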

How the data were processed

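Total RNA of 3 CRB3-expressing and 3 vector control MCF-10A samples had been hybridized to Affymetrix Human Genome U133 Plus arrays, 1 per sample. The authors corrected background and normalized the arrays by RMA (Robust Multichip Average), and the deposited log2 values were used as they stand. Versions are not given in the sources used here. Groups and replicate numbers came from the sample titles. limma 3.58.1 in R 4.3.3 (lmFit, eBayes) was fitted to 54613 probe sets, without 62 controls, and adjusted over all of them. The thresholds are those of the methods. Tables were made in Python 3.11.15 with pandas 2.3.3, and the fit was tested on simulated data. The platform annotation paired 41091 probe sets with a single symbol, 1801 with more than 1 and 11721 with no symbol, and symbols were updated through Entrez identifiers. In each list and in the chromosome 1 region, genes were named by size of change among those called (at most 4), otherwise by p (at most 2). Further genes were named outside this rule, for their role or after their values were seen. The members and lists were chosen with earlier results of these data known. Alternatives covered the replicate block, variance model, normalization, dim and shared probe sets, array weights, fold thresholds and each array left out. The number of arrays limits the precision.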

Additional observations from a re-analysis of the deposited data

How the results depend on the processing

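The count of member probe sets called higher, 8, became 5 with a fold change above 2, and 4 with an ordinary pooled variance, with limma's treat against a 1.5-fold change, and with probe sets shared between transcripts (_s_at, _x_at, _a_at) left out, which removes 7 of the 15. Leaving out single arrays gave between 5 and 7, with 5 without CRB3-expressing replicate 1. With no fold threshold 1 member, CSTA, was called lower. Over all probe sets, those called higher numbered 518, and 196 above 2-fold, 1226 with no fold threshold, 297 with an ordinary pooled variance, 313 without shared probe sets and 170 by treat. Those called lower numbered 198, and 44, 759, 82, 110 and 32 in the same order. Without single arrays they were between 490 and 526 higher and between 180 and 221 lower. By treat, 0 other transglutaminases, 1 transcription factor and 0 genes of the chromosome 1 region were higher and 0 transcription factors lower. Without shared probe sets, 3 barrier genes and 1 mammary marker were higher.

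With the replicate number as a block, 8 member probe sets were higher and 0 lower, and 512 of all were higher and 198 lower. The numbers did not pair the arrays, since the deviations of same-numbered arrays from their group means correlated at -0.085, 0.064 and 0.029.

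Over 243 alternatives for member probe sets, 214 kept direction and side of the thresholds, 24 lost the call, 2 gained it and 3 changed sign. These alternatives include 2 that changed only the fold threshold on the main fit. Both gains (IVL and CSTA) came from dropping that threshold. The sign changes were in 2 probe sets that were never called. SPRR3 218990_s_at, at -0.06, ran from -0.15 to 0.048 over single arrays left out, with positive values without CRB3-expressing replicate 2 (0.048) and without vector control replicate 1 (0.012), and CNFN, at 0.09, ran from -0.016 (without vector control replicate 2) to 0.18. Above 2-fold, the calls of SPRR1A 213796_at, SPRR1B and SPRR2B were lost through the threshold itself, with unchanged fold changes. For the other lost calls the cause was not tested. Signal over background limits SPRR1A 213796_at, SPRR3, SBSN and SCEL 1554920_at.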

Other observations

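Replicates of a group did not share 1 order over the members. CRB3-expressing replicate 2 was the lowest of its group in 8 of the 15 member probe sets and the highest in 4, and vector control replicate 2 was the lowest of its group in 7 and the highest in 4. SCEL 1554921_a_at had the tightest CRB3-expressing values (SD 0.00428, n = 3) and a vector control SD of 0.203, while SPRR3 232082_x_at had the widest vector control values (SD 0.424) beside a CRB3-expressing SD of 0.0859.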
